A study of Drosophila melanogaster with 15 samples.

Results

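The 10 genes described here encode enzymes of glycolysis in Drosophila melanogaster: Hex-A, Pgi, Pfk, Ald, Tpi, Gapdh1, Gapdh2, Pgk, Eno and PyK. They were picked by their symbols from the 15682 gene symbols counted in each library, and all 10 passed the filter on low counts. The series holds 15 RNA sequencing libraries that the labels call dissected skeletal muscle, in 5 groups of 3. The groups are flies with RNAi construct 1 against dpp (dpp RNAi #1), flies with construct 2 against dpp (dpp RNAi #2), a control RNAi, flies overexpressing dpp (dppOE), and a further control. The product of dpp, Decapentaplegic, is a BMP-type signal that cells release, and RNAi uses double-stranded RNA to lower a chosen transcript. All 15 libraries have the strain background w1118. The labels read here name no driver, age or sex, and they do not say that replicates are separate animals, so p-values measure only the spread between these libraries, which may be technical.

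Glycolysis splits a glucose molecule into pyruvate. Its upper steps spend ATP to phosphorylate and cleave the sugar, and its lower steps, from triose phosphates onward, return ATP and NADH. It fuels muscle contraction, and in Drosophila the enzymes of the triose phosphate steps are held together on the sarcomere of flight muscle.

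Library sizes, in units of 1000000 gene counts, ran from 11.24 to 18.08 for dpp RNAi #1, 16.72 to 22.4 for dpp RNAi #2, 31.77 to 33.29 for control RNAi, 25.54 to 56.29 for dppOE and 36.81 to 53.33 for control. Each of the 10 genes had at least 3456 counts in every library. The targeted transcript was not detectably lower under the RNAi labels: dpp averaged 32.0 CPM (TMM-scaled counts per 1000000) in libraries labelled dpp RNAi #1 and 31.3 CPM in those labelled dpp RNAi #2, against 31.5 CPM in control RNAi (log2 fold changes of 0.02 and -0.01, adjusted p = 0.942 and 0.951). It averaged 66.8 CPM in dppOE, against 33.5 CPM in control (log2 fold change 1.0, adjusted p = 1.39e-05). One dppOE library, replicate 3, stood apart: its counts differed from those of replicates 1 and 2 with a chi-square per degree of freedom of 60.6 and 52.1, against 5.22 to 19.4 in the other replicate pairs, and its dpp level was 51.7 CPM, beside 71.6 and 77.2 CPM. The tissue was mixed, and its markers were not those of the labels' dissected skeletal muscle alone. In every library the photoreceptor genes listed next took a larger share of counts than the muscle genes. The levels reported here are thus those of a mixed tissue and not of muscle. A list of 14 photoreceptor genes took 7.11 to 9.33% of scaled counts over the 15 libraries, and a list of 27 muscle structure genes took 0.998 to 1.71% in the dpp RNAi groups, 0.566 to 0.58% in control RNAi and 1.19 to 1.44% in dppOE and control together. No muscle gene was at 0, but the flight muscle gene Act88F, an actin, stayed between 8.46 and 30.7 CPM, and fln, a flight muscle thick filament protein, did not exceed 0.617 CPM. In such bulk samples, fewer cells of a type and less RNA per cell cannot be told apart. A number in the library codes was shared by both dpp RNAi groups, differed in control RNAi, and was shared by dppOE and control. What the number stands for is not given in the labels, and its part in a difference between a dpp RNAi group and either control cannot be told apart from that of the construct.

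The 10 enzymes together took between 0.62 and 0.757% of scaled counts in the 15 libraries. The sum was 0.692, 0.656 and 0.681% in the 3 libraries of dpp RNAi #1, and 0.757, 0.708 and 0.658% in those of dpp RNAi #2, against 0.636, 0.657 and 0.646% in control RNAi. It was 0.621, 0.651 and 0.671% in dppOE, against 0.623, 0.635 and 0.62% in control. Overlap was present between dpp RNAi #1 and control RNAi and between dppOE and control, and the lowest library of dpp RNAi #2, at 0.658%, lay just above the highest of control RNAi, at 0.657%. Hex-A and Eno varied least, with the highest group mean 1.09-fold above the lowest. Ald varied most at 1.33-fold, followed by Tpi at 1.31-fold, Pgk at 1.29-fold and Gapdh1 at 1.25-fold.

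**Figure D1:**
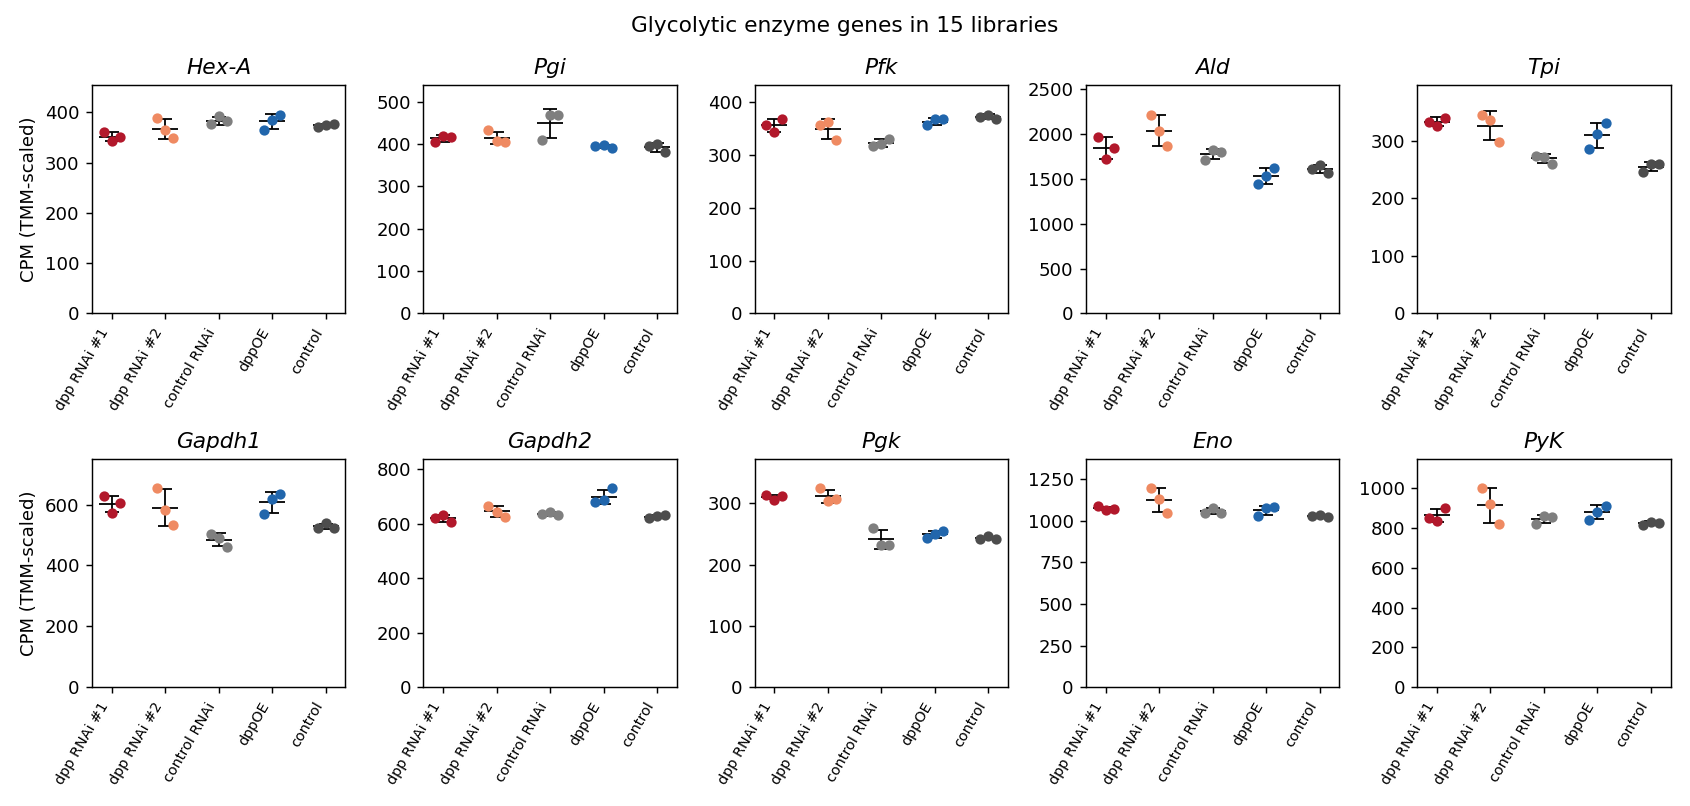
Level of each glycolytic enzyme gene in CPM (y axis, from 0) in the 3 libraries of each group (points), with the mean ± SD as black bars. Group means differ by at most 1.33-fold, in Ald, and the dpp RNAi libraries stand above the control RNAi libraries in Tpi, Gapdh1 and Pgk.

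Levels of the 10 enzymes were compared with each other per kilobase of length, with lengths from the Ensembl BDGP6 annotation. Per kilobase of exon, Gapdh2 and Ald were highest in control, at 435 ± 3.79 and 424 ± 11.7 CPM per kilobase (SD, n = 3 each), and their libraries overlapped. PyK at 367 and Gapdh1 at 357 CPM per kilobase followed and overlapped each other. Eno reached 276, Tpi 164, Pgi 159, Pgk 115, Hex-A 90.3 and Pfk 85.0 CPM per kilobase in control, and of these neighbours only Tpi and Pgi overlapped. The lower end of the order was the same in all 5 groups, with Eno at rank 5, Pgk at rank 8, Hex-A at rank 9 and Pfk, which catalyses the committed step of the pathway, at rank 10. Ald held rank 1 to 3 and Gapdh2 rank 1 to 2. The choice of length mattered. Per kilobase of coding sequence Ald led control with 1270 CPM per kilobase and Eno came next with 685, with exon lengths of 3809 and 3718 bases and coding lengths of 1269 and 1500 bases.

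**Figure D2:**
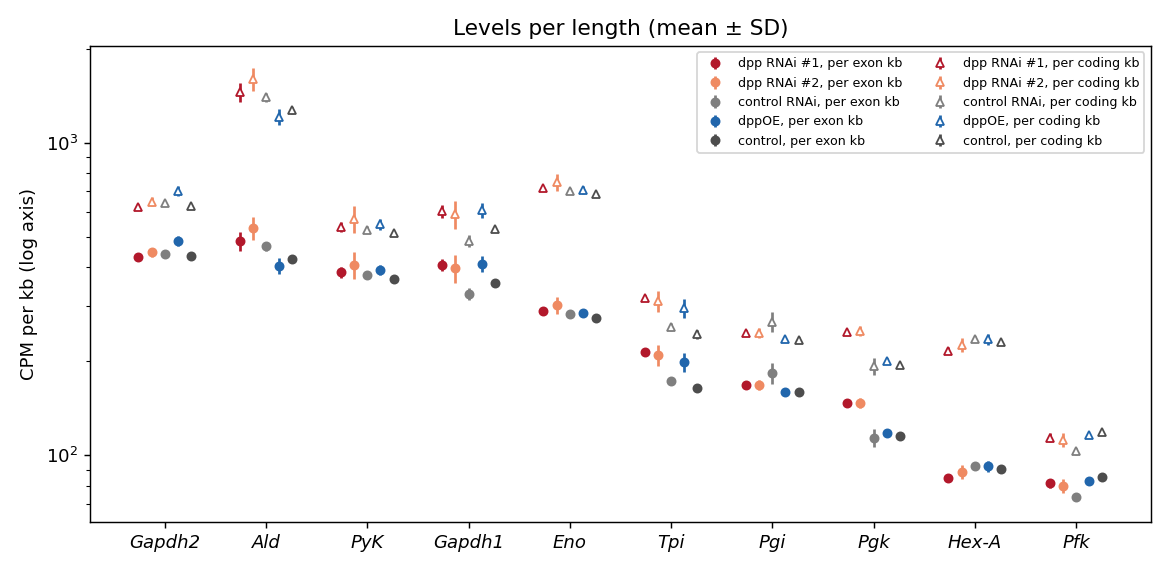
Level per kilobase (log axis) of each gene in the 5 groups, as mean ± SD of 3 libraries, per kilobase of exon (filled circles) and per kilobase of coding sequence (open triangles). Pfk and Hex-A lie lowest per exon length, and Ald moves up most when coding length is used.

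The dpp RNAi groups were first compared with control RNAi. Tpi, Gapdh1 and Pgk, which act one after another in the middle of the pathway, were higher with both constructs, by 21.2 to 29.2%. Ald was also higher with construct 2 and Pfk with construct 1, by smaller amounts. The other genes did not pass the test with either construct. In all, 4 of the 10 genes were called with dpp RNAi #1 and all 4 were higher, where 25.7% of the 10668 tested genes were called and 13.1% were called higher. With dpp RNAi #2 it was again 4 of 10, all higher, where 41.3% of tested genes were called and 21.0% were called higher. The count with construct 2 was thus close to the share over all genes. Libraries did not overlap in 5 of the 10 genes with construct 1, against 41.9% of tested genes, and in 4 with construct 2, against 53.5%. The 2 comparisons share their control RNAi libraries. The median absolute log2 fold change of the 10 genes was 0.12 in each, against 0.15 over all tested genes with construct 1 and 0.2 with construct 2. By mean CPM the 10 genes ranked from percentile 92.6 (Pgk) to 99.6 (Ald) among tested genes. These medians therefore do not compare genes of like level.

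Tpi, triose phosphate isomerase, interconverts the 2 products of aldolase. It had 333, 325 and 340 CPM in dpp RNAi #1 and 345, 335 and 298 CPM in dpp RNAi #2, against 274, 272 and 260 CPM in control RNAi. Every dpp RNAi library exceeded every control RNAi library. The log2 fold change was 0.31 ± 0.06 (SE) with construct 1 (adjusted p = 0.00189, edgeR's quasi-likelihood test with Benjamini-Hochberg adjustment, as for all adjusted p-values here) and 0.28 ± 0.06 with construct 2 (adjusted p = 0.00223).

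Gapdh1, one of 2 genes for glyceraldehyde-3-phosphate dehydrogenase, which makes the NADH of the pathway, had 627, 573 and 604 CPM in dpp RNAi #1 and 653, 583 and 532 CPM in dpp RNAi #2, against 504, 490 and 461 CPM in control RNAi. The groups again did not overlap. The log2 fold change was 0.31 ± 0.07 (adjusted p = 0.00382) with construct 1 and 0.28 ± 0.07 (adjusted p = 0.00444) with construct 2. Pgk, phosphoglycerate kinase, makes the first ATP of the lower steps. It had 313, 306 and 311 CPM in dpp RNAi #1 and 324, 303 and 307 CPM in dpp RNAi #2, against 259, 232 and 232 CPM in control RNAi. These groups did not overlap, and Pgk had the lowest adjusted p of the 10 genes with both constructs (log2 fold changes of 0.36 ± 0.05, adjusted p = 0.00012, and 0.37 ± 0.05, adjusted p = 4.21e-05). Pgk overlaps Bacc and Cwc25 on the opposite strand, and the strand setting of the counting is not given in the sources used here, so part of its counts could belong to those genes. The same holds for Ald, which overlaps the antisense RNA asRNA:CR44321, and for Eno, which overlaps Rrp40.

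None of the enzymes of the upper steps was called with both constructs. Ald, aldolase, which cleaves the phosphorylated hexose, had 1970, 1717 and 1840 CPM in dpp RNAi #1 and 2215, 2031 and 1866 CPM in dpp RNAi #2, against 1713, 1822 and 1796 CPM in control RNAi. Only construct 2 stood clear of control RNAi (log2 fold change 0.2 ± 0.07, adjusted p = 0.0334, against 0.05 ± 0.07, adjusted p = 0.627, with construct 1). The Ald call with construct 2 held in 15 of 21 alternative fits and was lost with no filter on low counts and without dpp RNAi #2 replicate 1 or 2 or any 1 of the control RNAi replicates. Pfk, phosphofructokinase, had 356, 344 and 368 CPM in dpp RNAi #1 and 356, 363 and 328 CPM in dpp RNAi #2, against 316, 320 and 331 CPM in control RNAi. Its call with construct 1 (0.14 ± 0.05, adjusted p = 0.041) held in only 8 of 21 alternative fits, and with a term for the replicate number the adjusted p was 0.0546. With construct 2 the Pfk fold change was 0.11 (adjusted p = 0.0704).

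Hex-A, a hexokinase, which traps glucose in the cell, and Pgi, glucose-6-phosphate isomerase, had negative fold changes that did not pass the test. Hex-A spanned 343 to 361 CPM in dpp RNAi #1 and 349 to 388 CPM in dpp RNAi #2, against 377 to 392 CPM in control RNAi (log2 fold changes of -0.13, adjusted p = 0.0747, and -0.06, adjusted p = 0.337). Pgi spanned 405 to 419 CPM in dpp RNAi #1 and 405 to 432 CPM in dpp RNAi #2, against 410 to 469 CPM in control RNAi (-0.12 with each, adjusted p = 0.122 and 0.0989). Without control RNAi replicate 1, whose Pgi level was the lowest of its group, Pgi passed with both constructs (-0.18 in each, adjusted p = 0.0151 and 0.0113). Under the DESeq2 Wald test Pgi passed with construct 2 (-0.13, adjusted p = 0.0476) and Hex-A with construct 1 (-0.14, adjusted p = 0.0146). Hex-A with construct 1 also passed with no filter on low counts (adjusted p = 0.0459) and without dppOE replicate 3 (adjusted p = 0.0466), 3 of 21 alternative fits in all.

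The remaining lower enzymes were not called. Gapdh2 had log2 fold changes of -0.04 and 0.02, Eno, enolase, had 0.02 and 0.09, and PyK, pyruvate kinase, which makes the final ATP, had 0.03 and 0.11. The 95% intervals of the construct 1 fold changes ran from -0.13 to 0.06 for Gapdh2, -0.09 to 0.13 for Eno, and -0.11 to 0.17 for PyK. Those of construct 2 ran from -0.08 to 0.12 for Gapdh2, -0.02 to 0.2 for Eno, and -0.02 to 0.25 for PyK. One library decided part of the construct 2 result: without dpp RNAi #2 replicate 3, 7 of the 10 genes were called, all higher, with Pfk, Eno and PyK added (adjusted p = 0.021, 0.0466 and 0.0207).

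Muscle gene levels also differed in this comparison. Of the 27 muscle structure genes 23 were called higher with each construct, with median log2 fold changes of 1.18 and 1.23. The muscle list took 1.58, 0.998 and 1.42% of scaled counts in dpp RNAi #1 and 1.71, 1.45 and 1.22% in dpp RNAi #2, against 0.568, 0.566 and 0.58% in control RNAi. Markers of other cells differed as well. With construct 1, 4 of 14 photoreceptor genes were called lower and none higher, 1 of 9 neuron genes lower, 4 of 7 glia genes lower and 2 higher, and 2 of 12 fat body genes each way. With construct 2, 10 photoreceptor genes were lower and none higher (median -0.29), 5 neuron genes lower and 1 higher (median -0.37), 1 glia gene lower and 2 higher, and 2 fat body genes each way. The part of these differences in the higher Tpi, Gapdh1 and Pgk levels relative to control RNAi was not tested.

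The dpp RNAi groups were next compared with control. In these pairs the muscle list had a median log2 fold change of 0.06 with dpp RNAi #1 and 0.13 with dpp RNAi #2. Of its 27 genes, 1 was called higher and 1 lower with each. Single muscle genes ran from -0.39 to 1.47 with construct 1 and from -0.4 to 0.73 with construct 2. Tpi and Pgk were as high against control as against control RNAi. Control libraries had 246, 259 and 259 CPM of Tpi, which gave log2 fold changes of 0.39 ± 0.06 (adjusted p = 0.000339) with construct 1 and 0.36 ± 0.06 (adjusted p = 0.00041) with construct 2. Control libraries had 242, 246 and 242 CPM of Pgk (0.35 ± 0.05, adjusted p = 0.000113, with construct 1 and 0.36 ± 0.05, adjusted p = 6.23e-05, with construct 2). Neither gene's libraries overlapped with control under either construct, and both calls held in all 21 alternative fits.

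Ald passed against control with construct 2 (0.34 ± 0.07, adjusted p = 0.00167), and in all 21 alternative fits. With construct 1 it had 0.19 ± 0.07 (adjusted p = 0.0587). Gapdh1 did not pass against control with either construct (0.19 ± 0.07, adjusted p = 0.0614, and 0.16 ± 0.07, adjusted p = 0.0892). In all, 2 of 10 genes were called with construct 1, where 24.6% of tested genes were called and 12.8% were called higher, and 3 of 10 with construct 2, where 36.2% were called and 18.3% were called higher. Libraries did not overlap with control in 8 of the 10 genes with construct 1, against 44.4% of tested genes, and in 6 with construct 2, against 53.9%. The construct 1 count became 4, with Ald and Gapdh1 added, without dpp RNAi #2 replicate 1, dpp RNAi #2 replicate 3 or dppOE replicate 3, which enter the shared estimate of spread. The construct 2 count became 6 without dpp RNAi #2 replicate 3. With library totals in place of TMM factors, 28.6% of all calls with construct 1 were higher and 29.4% with construct 2, against 52.2 and 50.5% with TMM. Under library totals Hex-A and Pfk were called lower with construct 1 (-0.16 and -0.14, adjusted p = 0.0173 and 0.0442) and Pfk with construct 2 (-0.18, adjusted p = 0.00825). Markers of other cells were not level in these pairs: 9 of 9 neuron genes were called higher with construct 1 and 7 of 9 with construct 2, and their summed share was 0.657 to 0.675% and 0.58 to 0.675%, against 0.503 to 0.515% in control. With construct 1, 6 of 12 fat body genes were higher and none lower, 2 of 7 glia genes higher, and 4 of 14 photoreceptor genes higher and 1 lower. With construct 2, 8 fat body genes were higher and 1 lower, 6 glia genes higher, and 1 photoreceptor gene higher and 6 lower. Their part in the Tpi, Pgk and Ald results was not tested.

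**Figure D3:**
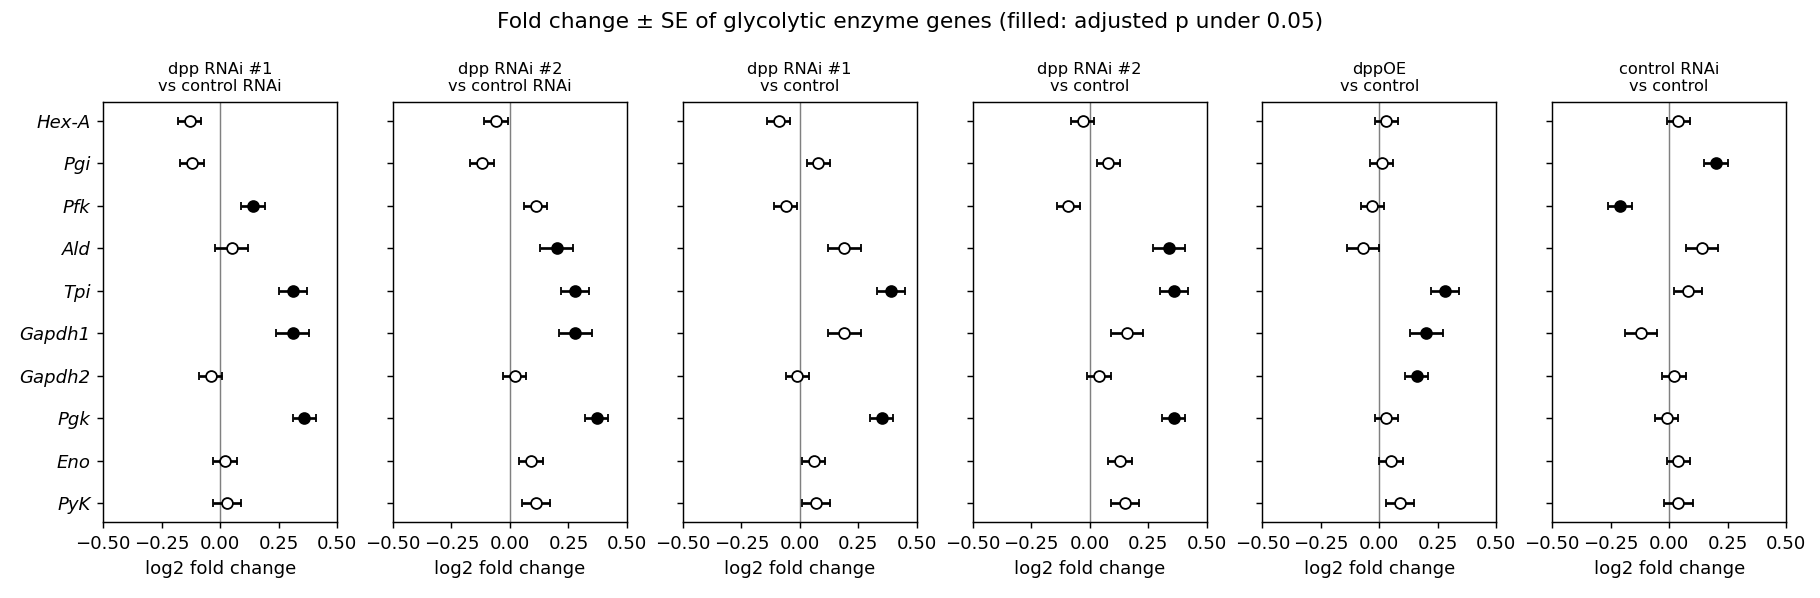
Log2 fold change ± SE of each gene in 6 comparisons, first-named group over second, with filled points for adjusted p under 0.05. Tpi and Pgk are filled in all 4 comparisons of a dpp RNAi group with a control, and Tpi, Gapdh1 and Gapdh2 are filled for dppOE.

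The 2 constructs did not separate from each other in these genes. None of the 10 passed in dpp RNAi #1 against dpp RNAi #2 by edgeR's quasi-likelihood test, by DESeq2, or at an unadjusted p under 0.05, where 12.0% of tested genes were called. The libraries of the constructs overlapped in all 10 genes, against 31.5% of tested genes without overlap. The point estimate farthest from 0 was Ald, at -0.15 ± 0.07 (adjusted p = 0.198), and its 95% interval of -0.29 to 0.0 allows a level up to 0.29 lower on the log2 scale with construct 1.

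Overexpression of dpp was compared with control. Tpi, Gapdh1 and Gapdh2 were higher in dppOE, by 21.4, 14.8 and 11.5%, and Pgk, the third gene raised under the RNAi labels, was not called. That made 3 of 10 genes, all higher, where 29.6% of tested genes were called and 13.4% were called higher. Libraries did not overlap in 5 of 10 genes, against 45.7% of tested genes. The median absolute log2 fold change was 0.06 over the 10 genes and 0.14 over all tested genes, most of which have lower counts.

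Tpi had 286, 311 and 331 CPM in dppOE, against 246, 259 and 259 CPM in control. The groups did not overlap (log2 fold change 0.28 ± 0.06, adjusted p = 0.00256), and the call held in all 21 alternative fits. Gapdh1 had 568, 619 and 634 CPM in dppOE, against 524, 538 and 523 CPM in control (0.2 ± 0.07, adjusted p = 0.0393). Gapdh2 had 681, 687 and 730 CPM in dppOE, against 622, 628 and 632 CPM in control (0.16 ± 0.05, adjusted p = 0.0169). Neither GAPDH gene overlapped between the groups, yet the Gapdh1 call held in 14 of 21 alternative fits and the Gapdh2 call in 19. Without control replicate 1 or control replicate 2 the count was 1, Tpi. Without dppOE replicate 3, the library that stood apart, it was 2 of 10, with Tpi at 0.23 (adjusted p = 0.00682), Gapdh2 at 0.13 (adjusted p = 0.0475) and Gapdh1 no longer called (0.17, adjusted p = 0.0866).

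The other 7 genes had log2 fold changes between -0.07 and 0.09 in dppOE. Ald had 1442, 1537 and 1622 CPM in dppOE, against 1615, 1659 and 1570 CPM in control, and Pgk had 243, 250 and 254 CPM in dppOE, against 242, 246 and 242 CPM in control. Both pairs overlapped. The 95% interval was -0.22 to 0.07 for Ald and -0.07 to 0.14 for Pgk. The summed muscle share was 1.19 to 1.44% in dppOE and 1.21 to 1.36% in control, with a median log2 fold change of 0.05 over the list. Single muscle genes ran from -0.64 to 1.63, with 5 called higher and 2 lower. Of the other markers, 4 of 12 fat body genes were higher and 1 lower, 3 of 7 glia genes lower, 2 of 14 photoreceptor genes higher and 3 lower, and 1 of 9 neuron genes lower. Their part in the dppOE calls was not tested.

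Control RNAi and control differ in their code number and in muscle gene levels, and the enzymes differed less than the muscle genes. Of the muscle list, 23 of 27 genes were called lower in control RNAi, with a median log2 fold change of -1.07. In the same pair 8 of 9 neuron genes (median 0.65), 7 of 12 fat body genes and 6 of 7 glia genes were called higher, and 1 glia gene and 1 fat body gene lower, beside 4 of 14 photoreceptor genes higher and 1 lower. The summed share of the 10 enzymes was 0.636 to 0.657% in control RNAi and 0.62 to 0.635% in control. Only Pgi and Pfk were called, 2 of 10 where 45.2% of tested genes were, 20.9% higher and 24.3% lower. Libraries did not overlap in 7 of 10 genes, against 62.2% of tested genes. Pgi had 410, 469 and 469 CPM in control RNAi, against 395, 401 and 381 CPM in control (0.2 ± 0.05, adjusted p = 0.00833). With library totals in place of TMM factors it fell short (0.1, adjusted p = 0.116), and in this pair library totals made 27.7% of all calls higher, against 46.3% with TMM. They also made Gapdh1 a call, lower in control RNAi (-0.22, adjusted p = 0.0144). Pfk was lower, with 316, 320 and 331 CPM in control RNAi, against 372, 376 and 367 CPM in control (-0.21 ± 0.05, adjusted p = 0.00277), and this call held in all 21 alternative fits. Fitted on these 6 libraries alone, Ald and Tpi also passed (0.17, adjusted p = 0.00866, and 0.11, adjusted p = 0.0412). The median absolute log2 fold change was 0.06 for the 10 genes and 0.2 for all tested genes, most of which have lower counts.

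The balance of the GAPDH genes was followed as the ratio of Gapdh1 to Gapdh2 counts, which does not depend on scaling between libraries. These genes are close copies of each other, each with 996 coding bases, and the counting could have split or dropped reads that match both, so the ratio is uncertain as an absolute value. It was 1.01, 0.905 and 0.994 in dpp RNAi #1 and 0.978, 0.905 and 0.851 in dpp RNAi #2, against 0.791, 0.761 and 0.731 in control RNAi. It was 0.834, 0.901 and 0.869 in dppOE, against 0.843, 0.857 and 0.828 in control. All 6 dpp RNAi libraries exceeded all 3 control RNAi libraries, while dppOE and control overlapped.

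The difference in mean log2 ratio was 0.35 for dpp RNAi #1 minus control RNAi and 0.26 for dpp RNAi #2 minus control RNAi, each with an exact two-sided permutation p of 0.1 (0.175 adjusted over 7 comparisons). With 3 libraries against 3, 0.1 is the smallest p this test can give. For dppOE minus control the difference was 0.04 (exact p = 0.3). Control RNAi was itself below control, by a log2 difference of -0.15 (exact p = 0.1). Against control, dpp RNAi #1 stood 0.2 higher without overlap (exact p = 0.1) and dpp RNAi #2 stood 0.11 higher with overlap (exact p = 0.2).

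**Figure D4:**
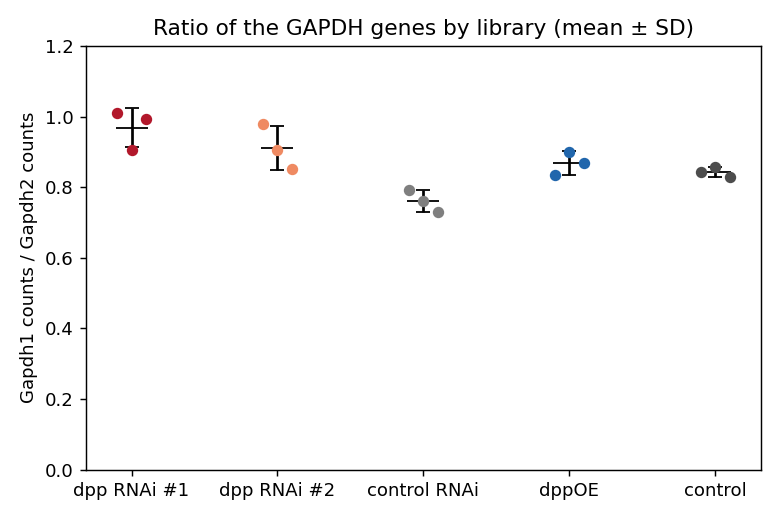
Ratio of Gapdh1 to Gapdh2 counts (y axis, from 0) in each library (points), with the mean ± SD of 3 libraries per group. The dpp RNAi libraries lie between 0.851 and 1.01 and the control RNAi libraries between 0.731 and 0.791.

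Within each group, the position of the libraries was compared over the enzymes. In dpp RNAi #2, replicate 1 was the highest library for 9 of the 10 genes and replicate 3 the lowest for 9, with median deviations from the group mean of 0.08 and -0.09 on the log2 scale. The muscle share in those libraries was 1.71 and 1.22%. In dppOE, replicate 3 was highest for 9 genes and replicate 1 lowest for 9, with muscle shares of 1.33 and 1.19%, while replicate 2, which had the highest muscle share of the group at 1.44%, was highest for 1 gene. In dpp RNAi #1, replicate 2 was lowest for 8 genes and had the lowest muscle share, 0.998%. In control RNAi, replicate 2 was highest for 6 genes and replicates 1 and 3 were lowest for 5 each, and in control, replicate 2 was highest for 8. The part of the muscle share in these shifts was not tested. The median coefficient of variation over the 10 genes was 5.89% in dpp RNAi #2, 3.87% in dppOE, 2.6% in control RNAi, 2.38% in dpp RNAi #1 and 1.2% in control.

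Over the 15 libraries, the 45 pairs of genes had Pearson correlations of log2 CPM between -0.62 (Pgi and Pfk) and 0.91 (Eno and PyK), with a median of 0.27. After group means were removed the median was 0.63, 42 of 45 were positive, the highest was 0.93 (Hex-A and Ald), and the lowest was -0.54 (Pgi and Pgk). These correlations are a description: the libraries share groups, code numbers and depth. The 10 genes outside the set most like its mean profile, over 15 libraries, were CG14671 (r = 0.81), CG2950, Mdh2, RpL34a, Shroom, CG17327, CG11876, CG5261, Gpo-1 and CG12203 (r = 0.74). Mdh2 encodes mitochondrial malate dehydrogenase (r = 0.79), CG11876 and CG5261 encode subunits of pyruvate dehydrogenase, Gpo-1 is the mitochondrial glycerol phosphate oxidase, and CG12203 is a subunit of respiratory complex I. Pglym78, the phosphoglycerate mutase that completes the pathway between Pgk and Eno, had r = 0.16, above 69.9% of the other tested genes. Mhc, muscle myosin heavy chain, had r = 0.47, above 94.6% of them.

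Neighbouring steps of carbohydrate metabolism were followed through lists of their genes. Pglym78 averaged 232 CPM in dpp RNAi #1 and 220 CPM in dpp RNAi #2, against 216 CPM in control RNAi, and was not called (log2 fold changes of 0.1 and 0.03, adjusted p = 0.165 and 0.693). It was lower in control RNAi than in control (216 against 243 CPM, -0.17, adjusted p = 0.0149). Pglym78 was also called lower in dpp RNAi #2 than in control (220 against 243 CPM), a call that held in 10 of 21 alternative fits. ImpL3, lactate dehydrogenase, which turns pyruvate to lactate, was higher in dppOE (19.1 CPM, against 14.4 CPM in control; 0.42 ± 0.12, adjusted p = 0.0176) and not called with either construct against control RNAi (0.26 and 0.3).

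The glycerol phosphate shuttle, which passes cytosolic NADH to mitochondria, had one end lower and the other higher against control RNAi. Gpdh, the cytosolic dehydrogenase, averaged 790 CPM in each dpp RNAi group, against 873 CPM in control RNAi, and was lower with both (-0.14, adjusted p = 0.0271 and 0.0178). Gpo-1 averaged 212 and 217 CPM, against 170 CPM in control RNAi, and was higher with both (0.32, adjusted p = 0.0184, and 0.35, adjusted p = 0.00637). The Gpdh calls held in 16 and 18 of 21 alternative fits and were lost on the 6 libraries alone (adjusted p = 0.0599 and 0.0754), and the Gpo-1 calls held in 17 and 21. Against control, by contrast, Gpdh was higher with both constructs (617 CPM in control; 0.36 with each, adjusted p = 3.21e-05 and 2.14e-05), and Gpo-1 was not called (0.1 and 0.14). In dppOE, Gpdh was lower, at 537 CPM, against 617 CPM in control (-0.2, adjusted p = 0.00285), and Gpo-1 averaged 196 CPM, against 197 CPM in control.

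Of 8 genes for the entry of pyruvate into mitochondria, 4 were called higher and 2 lower with dpp RNAi #1 against control RNAi, and 5 higher and 2 lower with dpp RNAi #2. Over all tested genes, 25.7% were called and 13.1% called higher with construct 1, and 41.3 and 21.0% with construct 2. The higher genes with both were CG5261 (0.45 and 0.52), CG11876 (0.38 and 0.44), CG7430, a dihydrolipoamide dehydrogenase (0.29 and 0.38), and CG9399, a subunit of the mitochondrial pyruvate carrier (0.32 and 0.44). With construct 2, l(1)G0334, another pyruvate dehydrogenase subunit, was also higher (0.21). The lower genes were Pdk, the kinase that inactivates pyruvate dehydrogenase (-0.38 and -0.31), and CG14290, the other carrier subunit (-0.22 and -0.13). Pdk had 260, 284 and 256 CPM in dpp RNAi #1 and 289, 269 and 278 CPM in dpp RNAi #2, against 272, 381 and 385 CPM in control RNAi, so both pairs overlapped. On the 6 libraries alone Pdk was called with neither construct (adjusted p = 0.115 and 0.0872) and CG14290 not with construct 2 (adjusted p = 0.0615).

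Muscle genes and other markers also differed in the pairs with control RNAi, and their part in these calls was not tested. Against control, 24.6% of tested genes were called with construct 1 and 36.2% with construct 2. Of the 8 genes, 0 were called with dpp RNAi #1. Unadjusted p values there were 0.028 for CG5261 and 0.0331 for CG11876 (edgeR's quasi-likelihood test). With dpp RNAi #2, 3 were called higher (CG5261, CG11876 and CG9399). With library totals in place of TMM factors all 3 of these were lost (adjusted p = 0.0898, 0.116 and 0.0591). In dppOE, CG14290 alone was called (0.25, adjusted p = 0.000637). Between control RNAi and control, 5 of the 8 were lower and 2 higher in control RNAi, where 24.3% of tested genes were lower and 20.9% higher, with Pdk at 346 CPM, against 233 CPM in control (0.57, adjusted p = 0.000255).

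Gluconeogenesis runs the pathway backwards. Pepck, phosphoenolpyruvate carboxykinase, averaged 2044 CPM in dpp RNAi #1 and 1553 CPM in dpp RNAi #2, against 3231 CPM in control RNAi, and was lower with both (-0.66 ± 0.12, adjusted p = 0.000893, and -1.06 ± 0.12, adjusted p = 1.39e-05). It averaged 899 CPM in dppOE, against 1447 CPM in control (-0.69 ± 0.12, adjusted p = 0.00041). Control RNAi was far above control (1.16, adjusted p = 3.18e-06), so Pepck was higher with dpp RNAi #1 than in control (0.5, adjusted p = 0.00645) and not called with dpp RNAi #2 against control (0.1).

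CG10924, which RefSeq names as a second Pepck gene, followed the same order: 10.3 and 6.16 CPM in the dpp RNAi groups, against 21.6 CPM in control RNAi (-1.07 and -1.81), and 1.81 CPM in dppOE, against 4.83 CPM in control (-1.38). fbp, fructose bisphosphatase, which opposes Pfk, was lower with both constructs against control RNAi (-0.18, adjusted p = 0.0339, and -0.35, adjusted p = 0.000209) and higher in dppOE (83.1 CPM, against 58.2 CPM in control; 0.51, adjusted p = 4.31e-06). Its construct 1 call against control RNAi held in 16 of 21 alternative fits and was lost on the 6 libraries alone (adjusted p = 0.0578). Against control, fbp was higher with both constructs (78.9 and 69.9 CPM, against 58.2 CPM; 0.44, adjusted p = 6.39e-05, and 0.26, adjusted p = 0.00247). CG1516, pyruvate carboxylase, was lower with construct 2 against control RNAi (-0.36, adjusted p = 0.00113) and higher in dppOE (0.21, adjusted p = 0.0441), a call that held in 12 of 21 alternative fits. Pfrx, which makes and removes the activator of phosphofructokinase, was higher in dppOE (273 CPM, against 235 CPM in control; 0.21, adjusted p = 0.00265). All 5 genes of this list were higher in control RNAi than in control, and against control 5 of 5 were higher with dpp RNAi #1 and 4 of 5 with dpp RNAi #2. Over all tested genes, the shares called higher in these 3 pairs were 20.9, 12.8 and 18.3%. The call of CG1516 with construct 2 against control held in 10 of 21 alternative fits.

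**Figure D5:**
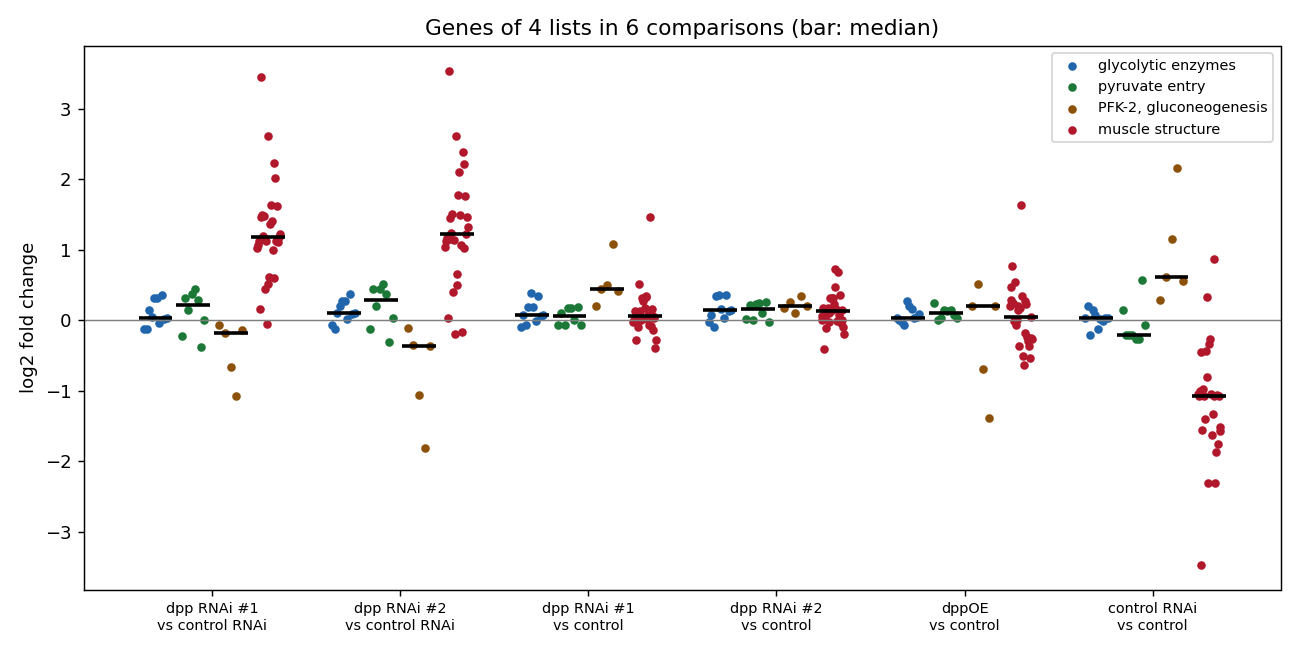
Log2 fold change of each tested gene (points) of 4 lists in 6 comparisons, first-named group over second, with the list median as a bar. In the panels of dpp RNAi #1 and #2 against control RNAi and of control RNAi against control, the enzymes have medians of 0.04, 0.11 and 0.04 with single genes from -0.21 to 0.37, and the muscle list has medians of 1.18, 1.23 and -1.07.

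Of 13 paralogs of the 10 enzymes, 9 did not pass the filter on low counts and none of those exceeded 0.239 CPM, among them the hexokinases Hex-t1 and Hex-t2, the aldolase CG5432 and the phosphoglycerate mutase Pglym87. Hex-C, another hexokinase, averaged 125 CPM in dppOE, against 77.7 CPM in control (0.68 ± 0.09, adjusted p = 2.93e-05), a larger fold than any of the 10 enzymes showed in that pair. It averaged 93.7 and 95.5 CPM in the dpp RNAi groups, against 93.6 CPM in control RNAi. Control was the lowest group. Hex-C was also called higher against control in control RNAi, dpp RNAi #1 and dpp RNAi #2, calls that held in 16, 10 and 18 of 21 alternative fits. CG9961 was lower in dppOE at a low level, 0.448 CPM against 1.27 CPM in control (log2 fold change -1.48, adjusted p = 9.43e-05). It was also called lower against control in control RNAi (0.618 CPM) and dpp RNAi #2 (0.509 CPM), in all 21 alternative fits.

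The pentose phosphate pathway branches from the product of hexokinase and returns sugar phosphates to glycolysis. In dppOE 3 of its 7 genes were higher and none lower, where 29.6% of tested genes were called and 13.4% were called higher. They were CG8036, a transketolase (551 CPM, against 371 CPM in control; 0.57, adjusted p = 0.000669), Tal, transaldolase (221 CPM, against 168 CPM; 0.4, adjusted p = 8.3e-05), and Rpi, ribose-5-phosphate isomerase (28.2 CPM, against 23.0 CPM; 0.29, adjusted p = 0.00386). Against control RNAi, Pgd, phosphogluconate dehydrogenase, was higher with both constructs (0.2, adjusted p = 0.0315, and 0.25, adjusted p = 0.00659). CG8036 was lower with construct 1 (-0.31, adjusted p = 0.041). The construct 1 calls held in only 13 of 21 alternative fits for Pgd and 10 for CG8036. Against control, 4 of the 7 genes were higher with dpp RNAi #1 and 5 with dpp RNAi #2, and none was lower, where 12.8 and 18.3% of tested genes were called higher. Of those 5, Zw, glucose-6-phosphate dehydrogenase, held its call in 6 of 21 alternative fits. In control RNAi against control, 4 of the 7 genes were also called higher and none lower, where 20.9% of tested genes were called higher.

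Of 7 transcription factors linked to glycolytic genes in flies, sug, a sugar-induced transcription factor, differed most. It averaged 30.2 and 28.9 CPM in the dpp RNAi groups, against 73.4 CPM in control RNAi (-1.29 ± 0.31, adjusted p = 0.0104, and -1.35 ± 0.3, adjusted p = 0.00464). The control RNAi libraries were far apart, at 41.9, 94.6 and 83.7 CPM (coefficient of variation 37.9%), and on the 6 libraries alone construct 1 did not pass (-1.28, adjusted p = 0.0843). Against control, at 30.5 CPM, sug was not called with either construct (-0.03 and -0.08). ERR, the estrogen-related receptor that switches on glycolytic genes in the Drosophila larva, was not called against control RNAi (-0.11 and -0.08) or in dppOE (0.07). Against control it was lower with construct 1 (-0.15, adjusted p = 0.0409), a call that held in 10 of 21 alternative fits, and not called with construct 2 (-0.13, adjusted p = 0.0548). sima, the fly HIF-alpha, and crc, the fly ATF4, were lower with construct 1 against control RNAi (-0.16, adjusted p = 0.0339, and -0.14, adjusted p = 0.0331). Both calls were lost with library totals (adjusted p = 0.0528 and 0.0549) and on the 6 libraries alone (adjusted p = 0.0774 and 0.0587). Control RNAi was itself called higher than control in sima (241 against 204 CPM) and crc (1343 against 1188 CPM). These calls held in 21 and 20 of 21 alternative fits. Against control, sima was called higher with construct 2 (232 CPM, held in 19 of 21 fits) and not called with construct 1, and crc was called with neither. bigmax, the partner of the sugar sensor Mondo, was higher with construct 2 against control RNAi (0.34, adjusted p = 0.000244). Its level in control RNAi was called lower than in control (17.3 against 20.3 CPM), in all 21 alternative fits. Against control, bigmax was not called with either construct (19.3 and 21.9 CPM, against 20.3 CPM). In dppOE, tgo, the partner of sima, and crc were lower (-0.15, adjusted p = 0.0248, and -0.16, adjusted p = 0.0144), but neither passed on the 6 libraries alone (adjusted p = 0.054 and 0.0587). The row Mio, a symbol that RefSeq lists for more than 1 gene, was higher in dppOE (0.22, adjusted p = 0.0134).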

How the data were processed

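The authors deposited raw read counts per gene symbol for each of 15 libraries. Per the submitters' processing notes, the tools were BWA, STAR and HTSeq and the build was dm3; versions, annotation and strand setting are not given in the sources used here. The HTSeq summary lines, 14.48 to 20.93% of all entries, were left out of library totals.

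From the counts, edgeR 4.0.16 (R 4.3.3) computed TMM factors, kept 10668 genes by filterByExpr (minimum count 10; 5014 left out) and fitted a robust quasi-likelihood model of group means to all 15 libraries, with 10 residual degrees of freedom. The threshold for a call was an adjusted p (Benjamini-Hochberg, over the 10668 genes) under 0.05. Replicates differed by more than sampling noise. CPM are scaled by TMM factors. Exact permutation tests used scipy 1.17.1. Lengths, current symbols, names and overlapping genes came from Ensembl BDGP6 and RefSeq, matched by symbol, and no coordinates are printed.

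The members, lists and rules were chosen with earlier results of these data known. All 10 enzymes and the 10 genes most like the mean profile were named. Called genes of 6 lists of related steps were named (up to 20 per comparison), but not in every comparison where they were called. CG7059, called in control RNAi and with both constructs against control, and CG17333, called with both constructs against control, are not described above. Alternatives were RLE factors, library totals alone, no filter on low counts, DESeq2 1.42.0, the 6 libraries compared alone, a replicate block, and each of 15 libraries left out. Titles give each group the numbers 1 to 3. Same-numbered libraries correlated above 0.1 in all 3 pairs only for dppOE and control, so the numbers may mark pairs there. The main fit did not use this pairing, so the dppOE tests are unpaired. Only the replicate block used the numbers, as a term over all 15 libraries.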

Additional observations from a re-analysis of the deposited data

Results flagged for a closer look

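Of all tested genes, 12.0% were called between the 2 constructs. In the related lists, fold changes relative to control RNAi differed between the constructs in 3 of 35 tested genes, or 8.57%. This was tested as dpp RNAi #1 against dpp RNAi #2, where control RNAi drops out. Pepck was 0.4 higher on the log2 scale with construct 1 (2044 CPM, against 1553 CPM with construct 2; adjusted p = 0.0404, edgeR's quasi-likelihood test), a call that held in 12 of 21 alternative fits and was lost with no filter on low counts (0.39, adjusted p = 0.0719). CG10924, the second Pepck gene, was 0.73 higher with construct 1 (10.3 CPM, against 6.16 CPM; adjusted p = 0.000339). Rpi was 0.51 higher with construct 1 (32.2 CPM, against 22.6 CPM, adjusted p = 0.000415). Its fold changes relative to control RNAi had opposite signs (0.31, adjusted p = 0.00449, and -0.19, adjusted p = 0.0408). The differences between constructs in CG10924 and Rpi held in all 21 alternative fits. With a replicate block the Rpi fold change with construct 2 against control RNAi did not pass (adjusted p = 0.0575). In each of these genes the 3 libraries of construct 1 lay above the 3 of construct 2, and 31.5% of tested genes had no overlap in this comparison.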

How the results depend on the processing

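Over 6 alternative settings, 376 of 420 log2 fold changes of the 10 enzymes kept their direction and side of the threshold, 5 lost the call, 20 gained it and 19 changed sign; leaving out each library gave 995, 24, 17 and 14 of 1050. Calls that held in all 21 alternatives were Tpi, Gapdh1 and Pgk with both constructs against control RNAi, Tpi and Pgk with both against control, Ald with construct 2 against control, Tpi in dppOE, and Pfk in control RNAi against control.

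The number of enzymes called, 2 for dpp RNAi #1 against control, was 4 under RLE factors, library totals alone, DESeq2 and the 6 libraries alone, all higher except with library totals, which gave 2 higher and 2 lower; it was 6 in place of 3 for dpp RNAi #2 against control under DESeq2, and 4 in place of 2 for control RNAi against control with the 6 libraries alone. Leaving out 1 library gave 3 to 5 for dpp RNAi #1 and 3 to 7 for dpp RNAi #2 against control RNAi, 1 to 3 for dppOE, 2 to 4 for dpp RNAi #1 against control and 3 to 6 for dpp RNAi #2 against control. The cause was not tested. Where an arm kept 2 libraries, the shared spread was assumed to hold for it.

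Every sign change was in an uncalled fold near 0. With library totals alone, control RNAi against control became -0.06 for Hex-A, -0.02 for Tpi, -0.07 for Gapdh2, -0.06 for Eno and -0.06 for PyK; dpp RNAi #2 against control became -0.01 for Pgi and -0.05 for Gapdh2; dpp RNAi #1 against control became -0.01 for Eno and -0.01 for PyK; and dpp RNAi #1 against #2 became 0.01 for Pgi and 0.01 for Pgk. With no filter, Gapdh2 with construct 2 and Eno with construct 1 became 0.0 against control RNAi. Under RLE factors and DESeq2, Gapdh2 became 0.01 in dpp RNAi #1 against control and Pgk became 0.02 in control RNAi against control, and with the 6 libraries alone 0.0 and 0.02. When libraries were left out, the folds that changed sign ranged from -0.07 to 0.01 for Hex-A in dpp RNAi #2 against control, -0.01 to 0.02 for Pgi in dppOE, -0.01 to 0.04 for Gapdh2 with construct 2 and 0.0 to 0.05 for PyK with construct 1 against control RNAi, and -0.07 to 0.01 for Pgk in control RNAi against control. Between the constructs they ranged from -0.03 to 0.03 for Pgi, -0.01 to 0.05 for Pfk, -0.03 to 0.07 for Tpi, -0.04 to 0.11 for Gapdh1 and -0.03 to 0.02 for Pgk.

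With the replicate block, 3 enzymes were called for dpp RNAi #1 and 4 for dpp RNAi #2 against control RNAi, 3 for dppOE, 0 between constructs, 2 for control RNAi and 2 and 3 for the constructs against control. It ended no other enzyme call than Pfk. Outside the dppOE pair the libraries share only a number, with same-number correlations from -0.29 to 0.45 and 7 of 15 libraries closest to their own number. The dpp RNAi groups were sequenced least, and 3 libraries a group limit what small changes can pass.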
